A study of Mus musculus with 18 samples.

Results

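Prostaglandin synthesis and reception were described through 10 genes, taken by symbol from the 23238 gene symbols of the count tables. They were the cyclooxygenases Ptgs1 and Ptgs2, the terminal synthases Ptges, Ptgis and Ptgds, the catabolic enzyme Hpgd, the PGE2 receptors Ptger2, Ptger3 and Ptger4, and the PGF receptor Ptgfr. All 10 symbols were found in each of the 18 libraries, which were made from cells sorted from the small intestine of adult C57BL/6J mice. PDGFRβ+ intestinal stromal cells (IntSCs) gave 6 WT and 5 KO libraries, and lymphatic endothelial cells (LECs) gave 4 WT and 3 KO libraries. LECs line the lacteals, the lymphatic capillaries inside the villi, and the other lymphatic vessels of the intestine. The WT mice carried PDGFRb+-CreERT2-Tomato+, and the KO mice carried in addition the floxed alleles Lats1f/f and Lats2 f/f, so that both genotypes held the tamoxifen-inducible Cre and the tdTomato reporter. The Pdgfrb promoter drives the Cre in fibroblasts, in smooth muscle cells and in pericytes, so the KO LECs were neighbours of the targeted cells and not themselves a target. The reads came from the 3′ ends of transcripts, which can lie outside the deleted exons: Lats1 averaged 16.03 CPM in KO IntSCs and 17.5 CPM in WT, and Lats2 114 and 72.8 CPM, so these genes did not check the labels. Magnetic beads were used before the sort to deplete leukocytes and epithelial cells, and endothelial cells too for the IntSCs, of whose markers RNA was still counted. KO stands below for the libraries labelled KO. Nothing in the labels says which animal a library came from, and p-values measure the spread between these libraries.

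Prostaglandins are lipid signals made from arachidonic acid, which phospholipases release from membranes. Cyclooxygenases turn it into PGH2, and terminal synthases turn PGH2 into PGE2, prostacyclin, PGD2 and others, which act on G protein-coupled receptors of nearby cells until they are taken up and oxidised. In the gut, fibroblasts and other stromal cells are known as makers of PGE2 and prostacyclin, and in lymphatic vessels prostanoids are known to act on contraction.

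Total counts ranged from 5361250 to 10549233 per library. Levels are given as CPM, the reads of a gene scaled to one fixed library size after TMM factors. The 9 stromal markers summed to 12086 to 17333 CPM in WT IntSCs and 8004 to 13150 CPM in KO IntSCs, against 320 to 2236 CPM in LECs, and the 10 LEC markers summed to 9333 to 15535 CPM in LECs against 254 to 428 CPM in WT and 460 to 546 CPM in KO IntSCs. WT LEC 1 stood apart, with 2236 CPM of stromal markers against 643 to 684 CPM in the other WT LEC libraries. The 8 leukocyte markers summed to 25.1 to 59.04 CPM in WT and 39.1 to 50.8 CPM in KO IntSCs, against 0.20 to 34.8 CPM in WT and 0.310 to 14.6 CPM in KO LECs, with WT LEC 2 the highest LEC library. The 6 mast cell markers summed to at most 0.152 CPM in WT IntSCs, 3.002 CPM in KO IntSCs and 2.23 CPM in KO LECs, and to 9.75 CPM in WT LEC 2. The 7 blood endothelial markers summed to 1410 to 2880 CPM in WT and 1081 to 1697 CPM in KO IntSCs, overlapping the 1911 to 2471 CPM of WT and 1409 to 1864 CPM of KO LECs, and the part of these lists in the results was not tested. The 6 Paneth cell markers were higher in the KO libraries of both cell types, at 40.5 to 131 against 0.542 to 6.96 CPM in IntSCs and at 10.8 to 97.03 against 0.0937 to 4.09 CPM in LECs, and their part in the results was not tested. In these bulk samples, fewer cells of a type and less RNA per cell cannot be told apart.

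In WT mice, the synthesis genes Ptgs1, Ptgs2, Ptges and Ptgis were higher in IntSCs than in LECs, while 0 of 5 further prostanoid synthase genes tested passed. The receptor genes split between the cell types: Ptger4 was higher in IntSCs and Ptger2 was higher in LECs. The Ptger2 call stood close to the threshold and was lost in 7 of the 10 fits that each left out 1 library. Those of Ptges and Ptgis were each lost in 5. Of the 10 genes, 8 had enough reads to be tested between WT LECs and WT IntSCs, and 6 passed, 1 higher and 5 lower in LECs (adjusted p under 0.05 by edgeR), where 22.6% of the 12203 genes tested passed, 10.3% higher and 12.3% lower. Their median log2 fold change was -3.05, against -0.04 over all genes tested. Between KO LECs and KO IntSCs, 9 genes were tested and 6 passed, all lower in LECs, where 25.9% of 12758 genes passed, 9.11% higher and 16.8% lower. Ptgs2 in both genotypes, and Ptger3 and Ptgfr in KO mice, had no read in LECs. They entered these tests through IntSCs and could only come out lower in LECs. The counts and the median thus do not describe the pathway as a whole. Between KO and WT IntSCs, 8 genes were tested and 0 passed by edgeR or by DESeq2, where 1.47% of 12421 genes passed by edgeR, and 3 of them had an unadjusted p under 0.05, where 9.81% of all genes did. Between KO and WT LECs, 4 genes were tested and 0 passed by edgeR or by DESeq2, with 0 at an unadjusted p under 0.05, where 0.0658% of 10639 genes passed and 7.87% had an unadjusted p under 0.05. Of the genes tested, Ptgs1, Ptges, Hpgd and Ptger4 were lower in every WT LEC library than in every WT IntSC library, 4 of 8 members against 11.5% of all genes, and 1, Ptger2, was higher in every one (9.65% of all genes). In KO mice 5 of 9 (Ptgs1, Ptgis, Hpgd, Ptger4 and Ptgfr) were lower in every LEC library, against 20.9% of all genes. Of these, Ptgfr had no read in KO LECs. The 4 comparisons share their libraries in pairs, since each group entered 2 of them. The CPM of each gene in each library is shown in the plot of the 10 genes by library.

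**Figure D1:**
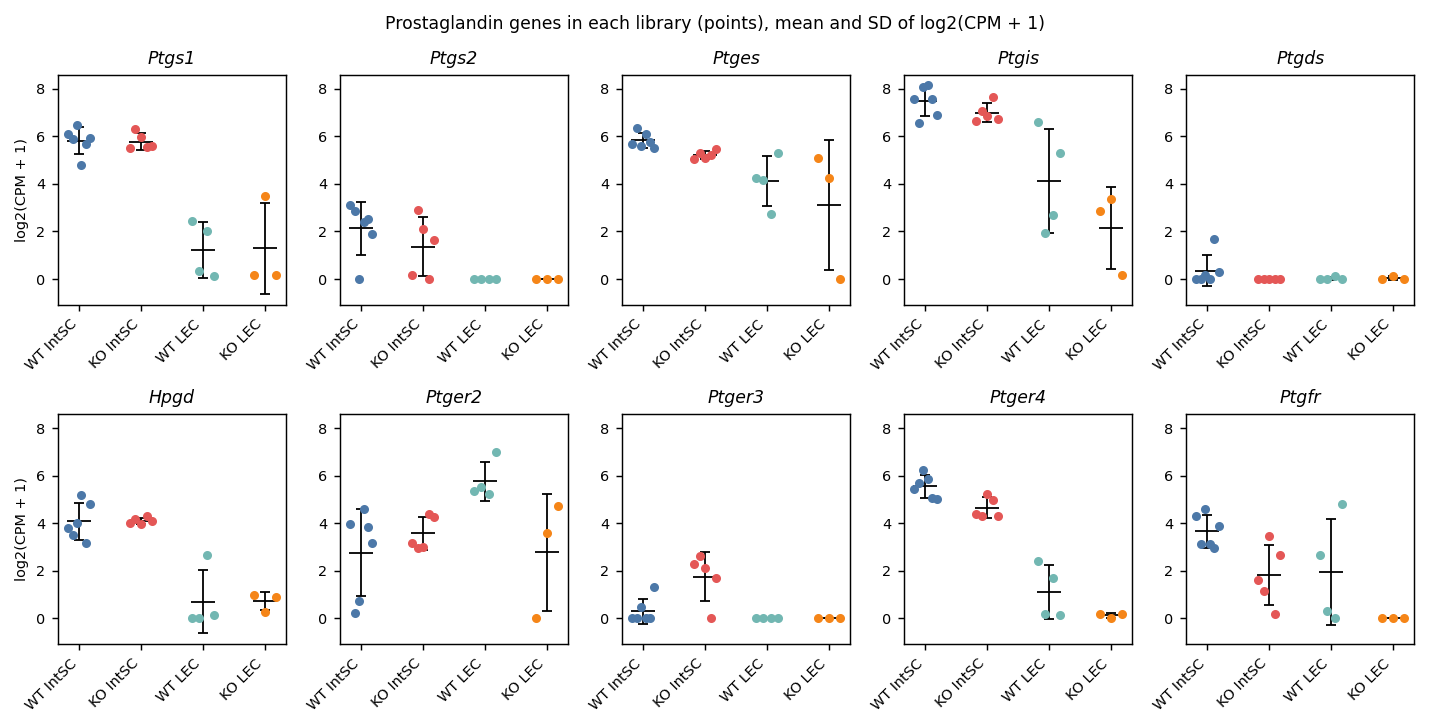
CPM of the 10 prostaglandin genes on a log2(CPM + 1) scale, with 1 point per library in each group (6 WT IntSC, 5 KO IntSC, 4 WT LEC and 3 KO LEC libraries), and bars for the mean and SD of the log2 values. Ptgs1, Hpgd and Ptger4 stood lower in every LEC library than in every IntSC library, Ptger2 was highest in the 4 WT LEC libraries, and Ptgds stayed near 0 in all groups.

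Ptgs1 encodes COX-1, the constitutive cyclooxygenase. It ranged from 26.9 to 88.8 CPM in WT IntSCs, with a median of 59.1 CPM, and was 43.9, 78.2, 61.1, 45.5 and 46.6 CPM in KO IntSC 1 to 5. In LECs it was 4.37, 0.247, 3.09 and 0.10 CPM in WT 1 to 4 and 0.140, 10.3 and 0.124 CPM in KO 1 to 3. Every LEC library lay below every IntSC library, and within each LEC group the values were spread over more than 10-fold. The log2 fold change of WT LECs against WT IntSCs was -4.87 ± 0.86 (SE, adjusted p = 6.94e-04 by edgeR), a 29.3-fold lower level, and it passed in all of the 10 fits that each left out 1 library. In KO mice the log2 fold change was -3.94 ± 1.26 (adjusted p = 0.0428 by edgeR), a 15.4-fold lower level. This call rested on single libraries: it was lost without any 1 of the 5 KO IntSC libraries or without KO LEC 1, with adjusted p from 5.22e-05 to 0.0863 over the 8 fits. KO and WT IntSCs overlapped, with a log2 fold change of -0.09 ± 0.28 (adjusted p = 0.980 by edgeR), whose 95% interval ran from 0.643-fold to 1.37-fold. In LECs the log2 fold change of KO against WT was 0.93 ± 2.19 (adjusted p = 0.9999 by edgeR), and without KO LEC 2 it was -3.69. Ptgs1 is also known from intestinal tuft cells, and the 6 tuft cell markers summed to 64.6 to 149.5 CPM in WT IntSCs and 24.2 to 90.5 CPM in KO IntSCs, against 0.20 to 22.4 CPM in WT LECs and 0 to 0.723 CPM in KO LECs. Dclk1 made up most of this sum, at 87.8 CPM on average in WT IntSCs, and Trpm5, Pou2f3 and Il25 were at 0 in all 6 WT IntSC libraries. The part of these markers in the Ptgs1 difference was not tested.

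Ptgs2 encodes COX-2, the inducible cyclooxygenase. Its levels were low: WT IntSCs ranged from 0 to 7.60 CPM with a median of 4.46 CPM, and KO IntSC 1 to 5 had 0.131, 6.44, 3.24, 0 and 2.13 CPM. No read was counted in any of the 7 LEC libraries, where 3 counts would be 0.281 to 0.419 CPM. WT IntSC 3 and KO IntSC 4 also had no read, so the cell types overlapped at 0. Taking the 3-count floor of a library for the LECs, Ptgs2 was at least 11.5-fold lower in WT LECs than in WT IntSCs (adjusted p = 0.0187 by edgeR), a call held in all of the 10 fits without 1 library. It was at least 5.70-fold lower in KO LECs than in KO IntSCs, which did not pass (adjusted p = 0.0675 by edgeR). KO and WT IntSCs overlapped (log2 fold change -0.84 ± 1.32, adjusted p = 0.942 by edgeR). Ptgs2 is known as an immediate early gene, and 13 other immediate early genes summed to 6936 to 13039 CPM in WT IntSCs and 4126 to 4639 CPM in WT LECs. In KO mice they summed to 10172 to 15834 CPM in IntSCs and 2053 to 2400 CPM in LECs, and their part in the Ptgs2 difference was not tested.

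Ptges encodes the inducible microsomal PGE2 synthase. It ranged from 45.1 to 79.9 CPM in WT IntSCs, with a median of 51.9 CPM, and was 32.0, 38.1, 32.7, 35.9 and 43.0 CPM in KO IntSC 1 to 5. All 5 KO IntSC libraries lay below all 6 WT libraries, as did 1.2% of the genes tested. The difference did not pass, with a log2 fold change of -0.65 ± 0.25 (SE, unadjusted p = 0.0149, adjusted p = 0.289 by edgeR), a 1.57-fold lower level, and adjusted p from 0.240 to 0.508 without 1 library. The summed stromal markers also stood lower in KO IntSCs, in the overlapping ranges given above. Pdgfrb of this list went the other way, at 694 to 1187 CPM in KO against 215 to 679 CPM in WT IntSCs. The part of these markers in the Ptges difference was not tested. LECs held 17.97, 17.2, 5.72 and 38.7 CPM in WT 1 to 4 and 33.0, 17.96 and 0 CPM in KO 1 to 3. The highest WT LEC library was still below the lowest WT IntSC library, and the log2 fold change was -1.52 ± 0.47 (adjusted p = 0.0285 by edgeR), a 2.86-fold lower level. That call was lost without WT IntSC 2, WT IntSC 4, WT LEC 1, WT LEC 2 or WT LEC 3, with adjusted p from 0.00573 to 0.0615 over the 10 fits, and in a joint fit of the 4 groups (0.174). In KO mice the groups overlapped at KO LEC 1 (-1.10 ± 1.13, adjusted p = 0.561 by edgeR).

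Ptgis encodes prostacyclin synthase and had the highest level of the 10 genes in IntSCs, at 191 ± 77.5 CPM (SD) in the 6 WT libraries and 130 ± 40.3 CPM (SD) in the 5 KO libraries. Counts of 3′ ends do not scale with transcript length. The annotation and use of strand behind the counts are not given, so levels of different genes compare only roughly. WT IntSCs ranged from 93.3 to 284 CPM with a median of 188 CPM, and KO IntSC 1 to 5 had 99.1, 131, 116, 199 and 105 CPM. The groups overlapped, and the log2 fold change of -0.55 ± 0.27 did not pass (adjusted p = 0.517 by edgeR). In LECs the libraries disagreed, with 97.3, 2.84, 5.53 and 37.8 CPM in WT 1 to 4 and 6.28, 9.29 and 0.124 CPM in KO 1 to 3. WT LEC 1, the library with the most stromal markers, overlapped the lowest WT IntSC library. Ptgis was lower in WT LECs than in WT IntSCs (-2.40 ± 0.77, SE, adjusted p = 0.0359 by edgeR), a 5.28-fold lower level. The call was lost without WT IntSC 3, WT IntSC 4, WT LEC 2, WT LEC 3 or WT LEC 4 (adjusted p from 0.00324 to 0.0983 over the 10 fits) and without the filter on low counts (0.129). Without WT LEC 1 it was -3.62 on the log2 scale. In KO mice every LEC library lay below every IntSC library, with a log2 fold change of -4.63 ± 0.91 (adjusted p = 0.00438 by edgeR), a 24.7-fold lower level that passed in all of the 8 fits without 1 library. KO against WT LECs gave -2.70 ± 1.52, which did not pass (adjusted p = 0.789 by edgeR).

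Ptgds, the gene of lipocalin-type PGD2 synthase, was close to absent at this depth. It had 19 reads in all of the WT IntSC libraries together, 0 in KO IntSCs, and 1 in each LEC group. WT IntSC 5 held most of the reads, at 2.22 CPM. No KO IntSC library had a read, where 3 counts would be 0.360 to 0.447 CPM, and the gene was too low to be tested in any comparison.

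Hpgd encodes the 15-hydroxyprostaglandin dehydrogenase that starts the breakdown of PGE2. It ranged from 7.97 to 35.2 CPM in WT IntSCs with a median of 13.9 CPM, and was 15.0, 17.0, 14.4, 18.5 and 15.8 CPM in KO IntSC 1 to 5. All KO values lay inside the WT range (log2 fold change -0.16 ± 0.45, SE, adjusted p = 0.976 by edgeR). WT LEC 1 to 4 had 0, 0, 5.34 and 0.10 CPM, and KO LEC 1 to 3 had 0.977, 0.206 and 0.869 CPM. Every LEC library lay below every IntSC library of its genotype. In KO mice the log2 fold change of -4.54 ± 1.07 passed (adjusted p = 0.0110 by edgeR), a 23.3-fold lower level, and did so in all of the 8 fits without 1 library. In WT mice it was -3.69 ± 1.47 and did not pass (adjusted p = 0.0870 by edgeR). WT LEC 3 decided that value: without it the log2 fold change was -8.46 and passed (adjusted p = 6.74e-04 by edgeR), as it did with DESeq2 (adjusted p = 0.00838) and in a joint edgeR fit of the 4 groups (0.0433).

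**Figure D2:**
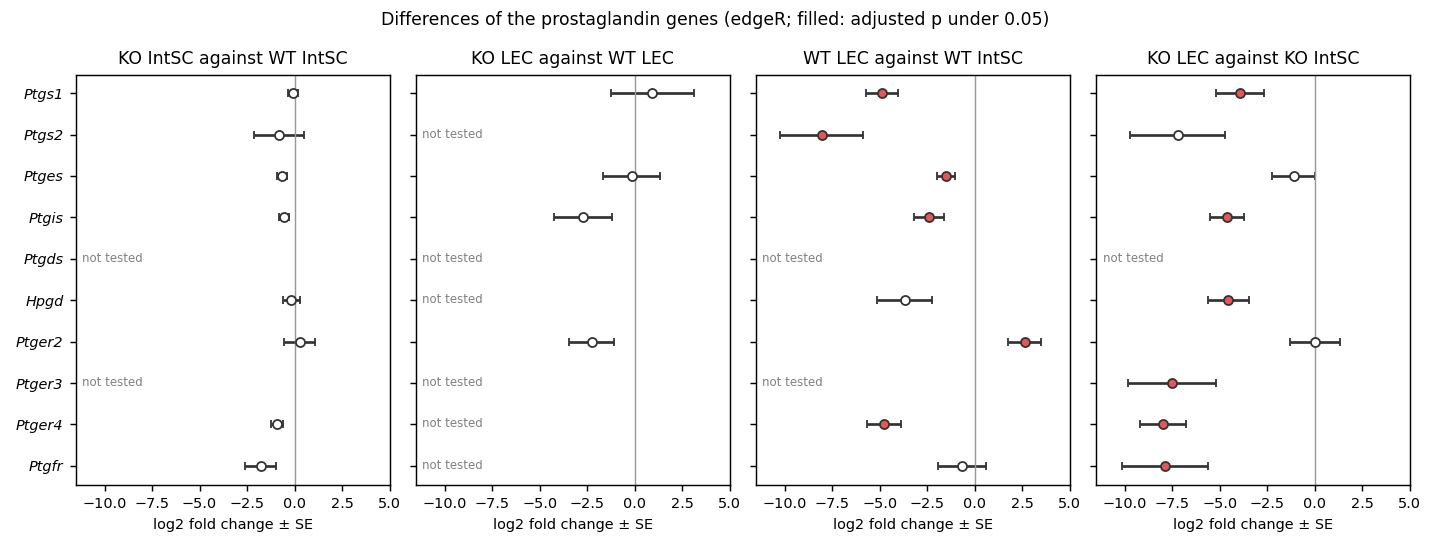
Log2 fold changes of the prostaglandin genes with their SE from edgeR in 4 comparisons, with filled circles for an adjusted p under 0.05. No filled circle stands in the panels of KO against WT, 6 stand in each panel of LECs against IntSCs, and Ptger2 is the 1 gene among them on the right of 0.

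PGE2 acts on 4 receptors. EP2 and EP4, encoded by Ptger2 and Ptger4, raise cyclic AMP, EP3, encoded by Ptger3, mostly lowers it, and EP1, encoded by Ptger1, is known for calcium signals. Ptger4 and Ptger2 are the members whose cell types were opposed in WT mice, so the 250 bases before their RefSeq start sites are shown, with those of Ptges. Promoters were listed for 9 of the 10 genes in the RefSeq table of GRCm38.p6. Ptger4 lies on the minus strand of chromosome 15 (window chr15:5244188-5244437), Ptger2 on the plus strand of chromosome 14 (chr14:44987861-44988110) and Ptges on the minus strand of chromosome 2 (chr2:30903298-30903547, before a start site inside the annotated gene). Capitals mark matches on either strand to GGGCGG, the GC box, and to GGAATG, a site read by TEAD factors, the partners of YAP and TAZ.
Ptger4: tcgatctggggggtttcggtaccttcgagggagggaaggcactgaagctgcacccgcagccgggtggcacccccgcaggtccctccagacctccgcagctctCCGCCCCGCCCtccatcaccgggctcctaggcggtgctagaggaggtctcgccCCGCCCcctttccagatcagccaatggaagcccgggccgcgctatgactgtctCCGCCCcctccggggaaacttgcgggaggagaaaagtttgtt
Ptger2: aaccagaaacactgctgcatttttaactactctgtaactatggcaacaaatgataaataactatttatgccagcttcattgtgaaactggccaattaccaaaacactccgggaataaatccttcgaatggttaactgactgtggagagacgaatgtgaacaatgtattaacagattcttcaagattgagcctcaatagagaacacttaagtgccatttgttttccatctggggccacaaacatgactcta
Ptges: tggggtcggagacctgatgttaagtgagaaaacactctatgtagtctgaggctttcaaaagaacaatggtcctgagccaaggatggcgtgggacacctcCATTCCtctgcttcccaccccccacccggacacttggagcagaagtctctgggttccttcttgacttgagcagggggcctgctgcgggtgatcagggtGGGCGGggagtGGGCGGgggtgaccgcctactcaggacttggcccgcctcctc

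The Ptger4 window was 66.8% G and C with 4 GC boxes, 2 of which shared a base, while the Ptger2 window was 38% G and C with none. The median over all 32851 promoters of the table was 52.4%. The GC box stood in 6 of the 9 windows (Ptgs2, Ptges, Ptgfr, Ptger3, Hpgd and Ptger4), against 32.7% of all promoters. GGAATG stood in the Ptges window alone, against 12.6% of all promoters. The paper used the shorter TEAD consensus GGAAT, which was not counted here and also occurs in the Ptger2 and Hpgd windows, among others not searched. TGANTCA, the AP-1 site, stood in the Ptgds window alone (6.75% of all promoters), and TGACG, the core of the cyclic AMP response element, stood in none (17.8%). These matches are descriptions of letters in short windows.

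Ptger4 was the main PGE2 receptor gene of IntSCs. It ranged from 31.4 to 75.4 CPM in WT IntSCs with a median of 46.5 CPM, and was 20.01, 18.8, 36.9, 30.9 and 18.6 CPM in KO IntSC 1 to 5. The groups overlapped, since the highest KO library exceeded the 2 lowest WT libraries. The log2 fold change was -0.95 ± 0.32 (SE, unadjusted p = 0.00714, adjusted p = 0.185 by edgeR), a 1.93-fold lower level that did not pass. The adjusted p ran from 0.138 to 0.425 without 1 library and was 0.111 with DESeq2. The sum of the stromal markers moved the same way, though Pdgfrb among them did not, at 878 CPM on average in KO against 484 CPM in WT IntSCs. The part of these markers in the Ptger4 difference was not tested. WT LEC 1 to 4 had 4.37, 0.123, 2.25 and 0.10 CPM, and KO LEC 1 to 3 had 0.140, 0 and 0.124 CPM. All LEC libraries were thus far below all IntSC libraries, with WT LEC 1 the highest among them. In WT mice the log2 fold change was -4.78 ± 0.91 (adjusted p = 0.00124 by edgeR), a 27.5-fold lower level, held in all of the 10 fits without 1 library. In KO mice 944 reads in IntSCs faced 2 reads in LECs, a ratio of 313 with a 95% counting interval of 86.5 to 2592, and the difference passed (log2 fold change -7.97 ± 1.20, adjusted p = 9.67e-04 by edgeR) in all of the 8 fits.

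Ptger2 had the most reads of the 4 PGE2 receptor genes in WT LECs. WT LEC 1 to 4 had 39.5, 44.3, 36.8 and 126 CPM, and the 4 libraries lay above all WT IntSC libraries, which ranged from 0.172 to 23.4 CPM with a median of 10.7 CPM. The log2 fold change was 2.63 ± 0.88 (SE, adjusted p = 0.0435 by edgeR), a 6.18-fold higher level. This call stood close to the threshold. It was lost without WT IntSC 1, 3, 5 or 6 or WT LEC 2, 3 or 4, with adjusted p from 0.0277 to 0.153 over the 10 fits, without the filter on low counts (0.0667) and in a joint fit of the 4 groups (0.0673). WT LEC 4 held the highest value, and without it the log2 fold change was 2.01 (adjusted p = 0.153 by edgeR). KO LEC 1 to 3 had 0, 11.05 and 25.6 CPM, all below the 4 WT LEC libraries, as was the case for 6.45% of the genes tested in LECs. The log2 fold change of KO against WT LECs was -2.25 ± 1.18 and did not pass (unadjusted p = 0.0786, adjusted p = 0.735 by edgeR), with a 95% interval from 0.0423-fold to 1.05-fold. The blood endothelial markers (1409 to 1864 against 1911 to 2471 CPM) and the immediate early genes (2053 to 2400 against 4126 to 4639 CPM) were also lower in every KO LEC library than in every WT LEC library, and their part in this difference was not tested. KO IntSC 1 to 5 had 8.11, 6.85, 7.09, 20.1 and 18.3 CPM, and neither the comparison with WT IntSCs (0.28 ± 0.81, adjusted p = 0.976 by edgeR) nor that with KO LECs (0.01 ± 1.31, adjusted p = 0.998 by edgeR) passed. In WT IntSCs the libraries were split, with WT IntSC 2 and 3 at 0.172 and 0.677 CPM and the other 4 at 8.01 CPM or more.

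Ptger3 had no read in any LEC library. It was at 0 in WT IntSC 1, 2, 4 and 5, and at 0.406 and 1.48 CPM in WT IntSC 3 and 6. KO IntSC 1 to 5 had 3.92, 5.07, 3.36, 0 and 2.26 CPM, so that 4 of the 5 KO libraries lay above all 6 WT libraries. The gene was too low for the filter of this comparison, and without the filter the difference did not pass (adjusted p = 0.438 by edgeR). Against KO LECs the KO IntSC level was at least 6.98-fold higher (adjusted p = 0.0435 by edgeR). That call was lost without KO IntSC 1, 2, 3 or 5 or any 1 of the 3 KO LEC libraries, with adjusted p from 0.0102 to 0.0894 over the 8 fits, without the filter (0.0692) and in a joint fit of the 4 groups (0.0531).

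Ptgfr encodes the PGF receptor FP. It ranged from 6.66 to 23.3 CPM in WT IntSCs with a median of 10.7 CPM, and was 2.09, 1.23, 10.1, 0.149 and 5.31 CPM in KO IntSC 1 to 5. KO IntSC 3 alone reached the WT range, and the log2 fold change of -1.78 ± 0.83 (unadjusted p = 0.0438, adjusted p = 0.481 by edgeR) did not pass. WT LEC 1 to 4 had 5.33, 0.247, 0 and 27.0 CPM, so that WT LEC 4 was above every IntSC library while WT LEC 3 had no read. The WT cell types accordingly overlapped (-0.66 ± 1.25, adjusted p = 0.784 by edgeR). No read was counted in any KO LEC library. KO LECs were at least 9.01-fold lower than KO IntSCs (adjusted p = 0.0336 by edgeR), a call lost without any 1 of the 3 KO LEC libraries and without the filter (0.0518). Without KO IntSC 1, 3 or 5 the gene was too low to be tested. Against the mean of 8.14 CPM in WT LECs, which WT LEC 4 set, KO LECs were at least 19.4-fold lower, and the gene was too low for the filter of that comparison. Without the filter it did not pass (adjusted p = 0.470 by edgeR).

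Whether the difference between KO and WT depended on the cell type was tested with an interaction term, the IntSC log2 fold change minus that of the LECs. Of the 10 genes, 9 had enough reads, and Ptgs2 and Ptger3 among them had no read in LECs, so that their interaction could not be estimated. Of the other 7, 0 passed, where 1.7% of 14015 genes tested passed, and 2 had an unadjusted p under 0.05 (Ptgfr and Ptger4), where 15.8% of all genes did. The median over all genes was 0.24. The fit gave 7.21 ± 2.53 for Ptgfr (SE, adjusted p = 0.150 by edgeR), which passed with DESeq2 (adjusted p = 0.0421). It rests on WT LEC 1 and 4 against the KO LEC libraries without a read, so the size of this value could not be estimated. Ptger4 differed by 3.19 ± 1.32 (adjusted p = 0.227 by edgeR), Ptger2 by 2.61 ± 1.55 (0.455) and Ptgis by 2.21 ± 1.25 (0.432).

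The reads of the 4 PGE2 receptor genes were also set against each other within a library, which removes the library size. Ptger4 took 46.3% to 87.4% of these reads in WT IntSCs (median 61.1%) and 33.3% to 65.6% in KO IntSCs (median 51%). In WT LECs Ptger2 took 80.4%, 68.0%, 68.5% and 83.1% in libraries 1 to 4, and Ptger4 took 8.91%, 0.189%, 4.18% and 0.0658%. No IntSC library reached the Ptger2 share of any WT LEC library, the highest being 43.4% in KO IntSC 5 (95% exact Clopper-Pearson interval 37.9% to 49.0%). KO LEC 1 to 3 had Ptger2 shares of 0%, 27.4% and 49.6%, and Ptger1 took the rest almost alone, with 50.1% to 98.7%. KO LEC 1 rested on 76 reads, and its 0 reads of Ptger2 allow a share of up to 4.74%, the upper bound of the same interval. Such intervals cover counting error only. Ptger1 itself averaged 16.6 ± 8.77 CPM in the 4 WT LEC libraries (SD), 21.9 ± 10.02 CPM in KO LECs (SD, n = 3), 17.5 ± 7.76 CPM in WT IntSCs (SD, n = 6) and 10.02 ± 9.06 CPM in KO IntSCs (SD, n = 5).

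**Figure D3:**
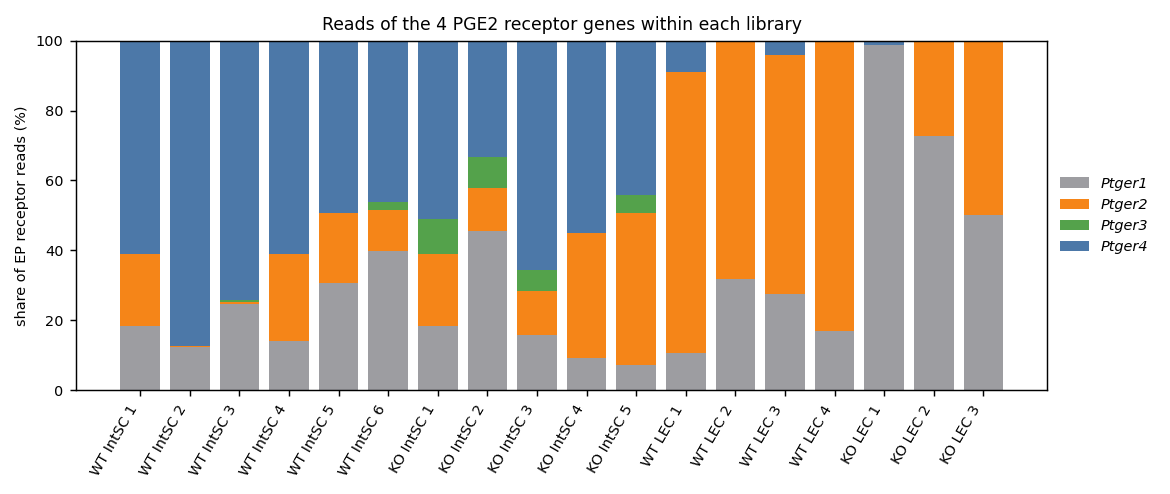
Share of each library's reads of Ptger1, Ptger2, Ptger3 and Ptger4 in percent, with 1 bar per library summing to 100%. Ptger4 takes the largest part in most IntSC bars, Ptger2 takes 68.0% to 83.1% in the 4 WT LEC bars, and Ptger1 takes 50.1% to 98.7% in the 3 KO LEC bars.

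The other genes of eicosanoid metabolism formed a list of 41, of which 4 had no read in any library and 19 reached a mean of 5 CPM in a group. Between KO and WT IntSCs 21 were tested, and 0 passed by edgeR or DESeq2 with 1 (Ptgr1) at an unadjusted p under 0.05. Between KO and WT LECs 15 were tested, and 0 passed by edgeR or DESeq2 with 1 (Ltc4s) at an unadjusted p under 0.05. Between WT LECs and WT IntSCs 20 were tested and 7 passed, 3 higher and 4 lower in LECs, where 22.6% of all genes passed. By arm, 5 of 15 genes of arachidonate release were tested and 3 were lower in LECs, where 12.3% of all genes were. In the leukotriene arm 3 of 10 were tested and 3 were higher, where 10.3% of all genes were. Pla2g4c and Pla2g5 had no read in WT LECs, and Ltc4s and Alox5ap averaged 0.724 and 0.499 CPM in WT IntSCs. These genes entered the test through their higher group, so the counts do not describe a whole arm. Of the further prostanoid synthases, 0 of 5 passed. Between KO LECs and KO IntSCs 22 were tested and 5 passed, 1 higher and 4 lower, where 25.9% of all genes passed.

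Upstream of the cyclooxygenases, Pla2g4a encodes cytosolic phospholipase A2, which frees arachidonic acid. It averaged 22.0 ± 3.69 CPM in WT IntSCs (SD, n = 6) and 14.3 ± 6.12 CPM in KO IntSCs (SD, n = 5), against 0.438 ± 0.626 CPM in WT LECs (SD, n = 4) and a single read in KO LECs. Every LEC library lay below every IntSC library, with a log2 fold change in WT of -5.64 ± 1.15 (SE, adjusted p = 0.00217 by edgeR). Pla2g5, a secreted phospholipase, had no read in LECs and was at least 13.7-fold lower there than in WT IntSCs (adjusted p = 0.0252 by edgeR), where it ranged from 0 to 18.01 CPM. That call was lost without WT LEC 3 or WT LEC 4. The gene had enough reads in only 6 of the 10 fits without 1 library, and passed in 4. Pla2g12a did not separate the groups, with means of 40.4 to 64.5 CPM. Ptges3, the cytosolic PGE2 synthase also known as the chaperone p23, was even across the groups, with means of 69.9 to 82.7 CPM and no comparison past the threshold.

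Downstream, Ptgr1, which encodes a reductase that inactivates prostaglandins and leukotriene B4, averaged 24.7 ± 14.4 CPM in WT IntSCs and 0.0956 ± 0.0766 CPM in WT LECs (log2 fold change -7.74 ± 1.09, SE, adjusted p = 8.63e-05 by edgeR). It had no read in KO LECs, at least 26.9-fold below KO IntSCs (adjusted p = 0.00608 by edgeR). Its mean in KO IntSCs was 11.3 ± 6.56 CPM, a difference from WT that did not pass (-1.13 ± 0.51, adjusted p = 0.465 by edgeR). Ptgir, the prostacyclin receptor gene, averaged 10.6 ± 5.18 CPM in WT IntSCs and 16.4 ± 6.07 CPM in KO IntSCs. It had no read in WT LEC 2, 3 and 4 or in the KO LECs, which were at least 39.1-fold below KO IntSCs (adjusted p = 0.00243 by edgeR). In WT mice its difference did not pass (-4.35 ± 1.75, adjusted p = 0.0922 by edgeR) except without WT LEC 1, the LEC library with reads (-9.30, adjusted p = 0.00520 by edgeR), with DESeq2 (0.00583) or in a joint fit of the 4 groups (0.0402). The gene of prostacyclin synthase and that of its receptor were thus both at their highest in IntSC groups. Abcc4, which encodes a transporter that exports prostaglandins, averaged 12.8 to 43.0 CPM over the groups with overlap, and Fam213b, the gene of a PGF synthase, averaged 4.77 to 16.8 CPM.

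In the leukotriene arm, 3 of 10 genes were tested between WT LECs and IntSCs and all 3 were higher in LECs, while in KO mice 5 were tested and 1, Ltc4s, passed. Ltc4s, the gene of leukotriene C4 synthase, averaged 131 ± 33.0 CPM (SD) in the 4 WT LEC libraries and 243 ± 77.0 CPM in KO LECs (SD, n = 3), against 0.724 ± 0.966 CPM in WT IntSCs (SD, n = 6) and 0.110 ± 0.123 CPM in KO IntSCs (SD, n = 5). The log2 fold change of LECs against IntSCs was 7.57 ± 0.79 in WT (SE, adjusted p = 6.37e-06 by edgeR) and 10.95 ± 0.60 in KO (adjusted p = 2.59e-06 by edgeR). Between KO and WT LECs its log2 fold change of 0.96 ± 0.33 did not pass (adjusted p = 0.443 by edgeR). Alox5ap, which encodes the protein that presents arachidonate to 5-lipoxygenase, was higher in WT LECs than in WT IntSCs (4.93 ± 1.54, adjusted p = 0.0305 by edgeR), at 15.4 ± 5.16 against 0.499 ± 0.774 CPM, a call lost without WT IntSC 5 or WT LEC 2, the LEC library with the most leukocyte and mast cell markers. In KO mice its log2 fold change of 3.47 ± 1.47 did not pass (adjusted p = 0.111 by edgeR). Lta4h, the gene of leukotriene A4 hydrolase, was also higher in WT LECs (1.42 ± 0.46, adjusted p = 0.0358 by edgeR), but the groups overlapped and the call was lost without any 1 of WT IntSC 1, 2, 3, 4 and 6, WT LEC 1 and WT LEC 4. In KO mice its log2 fold change of 1.18 ± 0.51 did not pass (adjusted p = 0.114 by edgeR). Cysltr1, a cysteinyl leukotriene receptor gene, and Alox15, a 15-lipoxygenase gene, had reads in IntSCs and none in LECs. Alox5, the gene of 5-lipoxygenase itself, had reads in 1 of the 4 WT LEC libraries (9.30 CPM), in 0 of the 3 KO LEC libraries, in 0 of the 6 WT IntSC libraries and in 1 of the 5 KO IntSC libraries (0.360 CPM). Cysltr1, Alox15 and Alox5 were named after their values were seen.

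**Figure D4:**
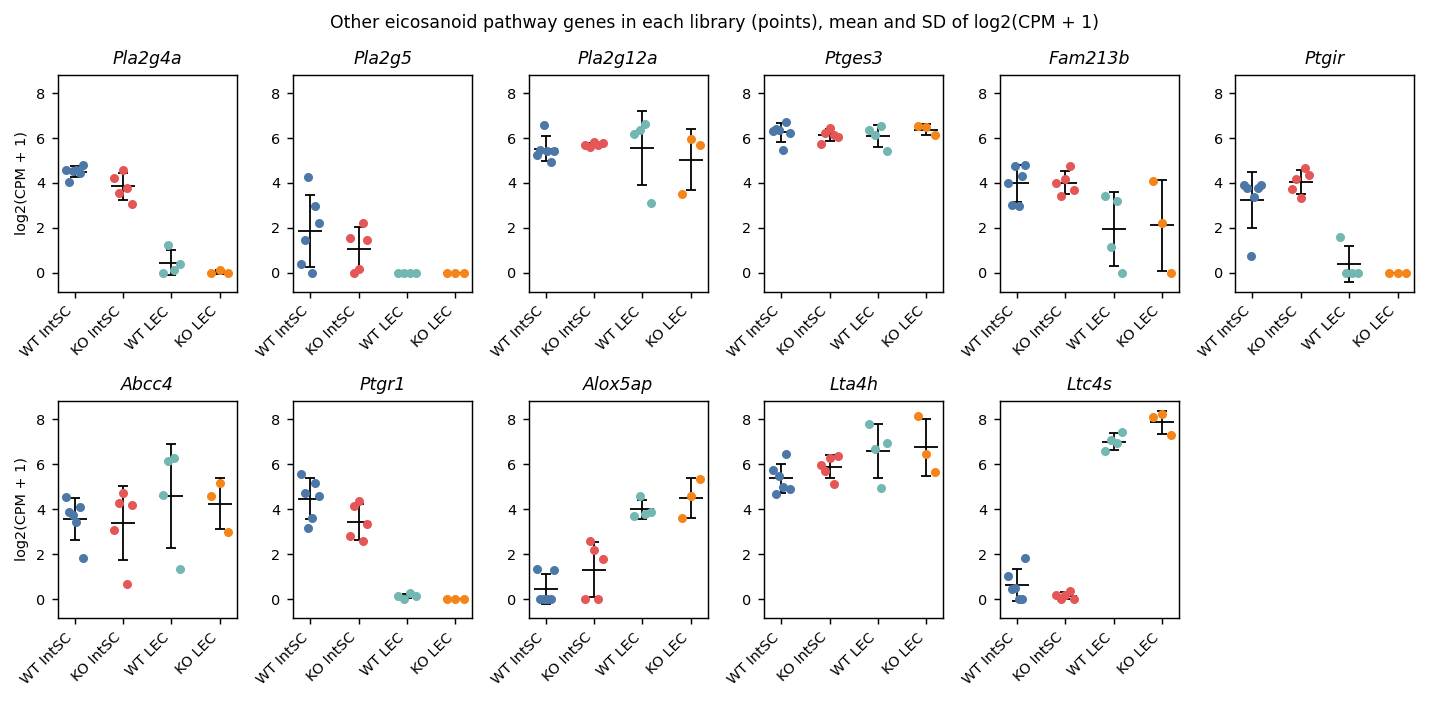
CPM of 11 other eicosanoid pathway genes on a log2(CPM + 1) scale, with 1 point per library in the 4 groups (n = 6, 5, 4 and 3) and bars for the mean and SD of the log2 values. Pla2g4a and Ptgr1 are near 0 in all LEC libraries, Ltc4s and Alox5ap are high in LECs, and Ptges3 is level across the groups.

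Across the 18 libraries and 10734 genes, the genes whose log2(CPM + 1) followed each gene most closely were listed as a description, since the libraries share the 4 groups and their depth. For Ptger4 they were Ephb2 (Pearson r = 0.979), Dcn (0.978) and Lsp1 (0.976), and for Ptgs1 they were Enpp1 (0.972) and Efemp2 (0.972). Ptgis was closest to Angptl2 (0.948), Adcy5 (0.941) and Tnfsf13b (0.935), and Hpgd to Serpini1 (0.952), Myh14 (0.951) and Daam2 (0.948). Ptges was closest to Ahdc1 (0.916), C1qtnf1 (0.913) and Rnf122 (0.910). The closest genes for Ptger2 were Dtwd1 (0.862), Cables1 (0.826) and Cd274 (0.823), and for Ptgfr Hcar1 (0.882), Chl1 (0.872) and Hpse (0.863), so these 2 genes had the loosest companions.

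In RefSeq's annotation of GRCm38.p6, 4 of the 10 genes lie on chromosome 2: Ptgds (25466709 to 25470110), Ptges (30889471 to 30931020), Ptgs1 (36216742 to 36258593) and Ptgis (167203194 to 167252150). Ptgs2 lies on chromosome 1 (150100031 to 150108234), Ptgfr and Ptger3 on chromosome 3 (151798610 to 151837528 and 157566821 to 157644758), Hpgd on chromosome 8 (56294552 to 56321046), Ptger2 on chromosome 14 (44988111 to 45003820) and Ptger4 on chromosome 15 (5233399 to 5244187). Of these, Ptges and Ptgis overlap other annotated genes (Gm52550 and Gm13400 for Ptges, Gm52569 for Ptgis), none of which has a row in the count tables, so reads from either strand of those stretches could have been counted to them.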

How the data were processed

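RNA of sorted cells was sequenced from 3′ ends (Lexogen QuantSeq). The submitters' processing notes name Bowtie2, edgeR and mm10, and the study's methods name TopHat and Cufflinks. The counting program, its annotation and its use of strand are not given in the sources used here. The authors deposited 1 table of raw read counts per library, with 23282 rows and 23238 symbols. Counts of the 35 symbols on several rows were summed. Groups and numbers came from the sample titles.

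Tests used edgeR 4.0.16 (R 4.3.3) with filterByExpr by group, TMM factors, a robust quasi-likelihood fit and Benjamini-Hochberg adjustment over all genes tested, threshold 0.05. Each fit held the 2 groups compared, and the interaction held all 4. SEs were derived from the F statistic. CPM used TMM factors over all 18 libraries. Folds against groups without reads used 3 counts in the shallowest library of that group. The procedure was run on simulated counts with changes set only in genes of higher mean level, so that run does not bear on genes near 0 in a group. Alternatives were DESeq2 1.42.0, RLE factors, no filter beyond 1 read, the replicate number as a block, Rn45s left out, a joint fit of the 4 groups, and leaving out single libraries. The 10 genes, the 41 pathway genes and the marker lists were chosen with earlier results of these data known. Pathway genes were named where they passed with a mean of at least 5 CPM in a group, or were among the 6 highest of a cell type over its WT and KO libraries. The 3 genes of most similar pattern were named for each gene with a mean of at least 10 CPM in a group, except that 1 of those for Ptgs1 is not reported here. Intervals of read ratios and shares, and floors, cover counting error only, because reads without molecular identifiers are not independent molecules. Promoters and positions came from RefSeq tables of GRCm38.p6.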

Additional observations from a re-analysis of the deposited data

Results flagged for a closer look

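A library lay far from its group in 9 of 59 sets of 4 to 6 values, judged by its distance to the nearest other library over the whole range. For independent sets chance would give about 2.95. These sets share their libraries, and some hold a lone value beside values of 0, so that number sets no expectation for them. Ptger2 was 126 CPM in WT LEC 4 against 36.8 to 44.3 CPM in the other WT LEC libraries. Hpgd was 5.34 CPM in WT LEC 3 against 0 to 0.10 CPM. Ptgds was 2.22 CPM in WT IntSC 5 against 0 to 0.211 CPM, and 0.0937 CPM, a single read, in WT LEC 3 against 0. Ptger3 was 1.48 CPM in WT IntSC 6 against 0 to 0.406 CPM. Among the pathway genes, Alox5ap was 23.1 CPM in WT LEC 2 against 12.0 to 13.6 CPM, in the LEC library with the most leukocyte (34.8 CPM) and mast cell markers (9.75 CPM), and Ptgir was 2.00 CPM in WT LEC 1 against 0. Ptgir was 0.677 CPM in WT IntSC 3 against 9.26 to 14.1 CPM, and Pla2g12a was 95.1 CPM in the same library against 29.8 to 42.6 CPM.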

How the results depend on the processing

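The number of members past the threshold stayed within 1.5 times of its value above under every alternative, except the replicate block between KO LECs and KO IntSCs (1 in place of 6), DESeq2 for the interaction (1, Ptgfr, in place of 0) and single libraries left out (3 to 5 between WT LECs and IntSCs, 3 to 6 between KO LECs and IntSCs, and 0 in the other 3 comparisons). Same-numbered libraries deviated together weakly at most (r from -0.06 to 0.08, 0 pairs over 0.1). Between WT LECs and WT IntSCs, 3 of 4 same-numbered pairs correlated best with each other, at a mean r of 0.035 against -0.007 for other numbers. The other comparisons had 1 such pair each. Whether the numbers pair libraries is thus not settled, and the main fits did not use them. The counts of all genes moved as follows. DESeq2 gave 369 genes for IntSCs, 309 for LECs and 1023 for the interaction, against 183, 7 and 238. A joint fit of the 4 groups gave 27 for IntSCs and 363 for LECs, and no filter gave 32 for LECs. The replicate block gave 3 for LECs, 1596 for WT cell types (against 2763), 895 for KO cell types (against 3302) and 16 for the interaction. Leaving out a library gave 99 to 186, 0 to 16, 2233 to 2891, 2557 to 3320 and 161 to 461 genes, in the order IntSCs, LECs, WT cell types, KO cell types and interaction. Among the genes the named-gene rule gave, log2 fold changes changed sign under the block for Hpgd (0.19), Fam213b (0.18) and Abcc4 (-0.60) in IntSCs, Ptgs1 (-2.82) and Fam213b (-0.39) in LECs, Pla2g12a (-0.035) between WT and Ptger2 (-0.31) between KO cell types, and Ptgs1 (0.57), Ptges (0.17) and Hpgd (-2.44) in the interaction. Ptger2 between KO cell types was -0.013 with DESeq2 and -0.013 with RLE factors. Without single libraries, those of the same genes spanned 0 in IntSCs for Ptgs1 (-0.25 to 0.069), Hpgd (-0.31 to 0.14), Pla2g12a (-0.017 to 0.41), Fam213b (-0.33 to 0.11) and Abcc4 (-0.23 to 0.42), in LECs for Ptgs1 (-3.69 to 1.504), Ptges (-1.05 to 0.43), Lta4h (-0.72 to 0.77) and Fam213b (-1.26 to 1.10), between WT cell types for Ptges3 (-0.26 to 0.068), between KO cell types for Ptger2 (-1.12 to 0.59) and Pla2g12a (-0.76 to 0.11), and in the interaction for Ptgs1 (-1.69 to 3.66), Ptges (-1.01 to 0.50), Hpgd (-3.93 to 1.24), Lta4h (-0.26 to 1.27) and Fam213b (-1.12 to 1.28). None of these results had passed, and the cause was not tested. With 4 against 3 LEC libraries the 95% interval of the Ptger2 difference ran from 0.0423-fold to 1.05-fold.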
